A study of Mus musculus with 9 samples.

Results

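The genes described here code for the factors that start and extend protein synthesis and for the proteins of the cytosolic ribosome, in the striatum of R6/2 and wild-type mice. Members were chosen by symbol: Eif1 to Eif6, Eef1 and Eef2, and Rpl, Rps or Rplp followed by a digit. The kinases of ribosomal protein S6 (Rps6k genes), Eif2ak3, Eif2s3x and Eif2s3y were left out. Of 18194 genes with a probe set naming only that gene, the members were 38 initiation factors, 6 regulators of initiation, 11 elongation factors or their modifying enzymes, 26 genes of the large ribosomal subunit and 24 of the small subunit. The subunit genes were assigned by symbol. Of them, 42 code for ribosomal proteins and 8 are ribosomal protein-like genes, a pseudogene (Rps15a-ps6) or a partner (Rps19bp1). All are called ribosomal genes below. Each gene is represented by its probe set with the highest mean over the 9 arrays.

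Whole-transcriptome arrays were hybridised with striatal RNA of 9 mice, 1 array for each animal: R62_86, R62_95, R62_105, R62_107 and R62_109 (5 R6/2 mice) and WT_46, WT_47, WT_49 and WT_66 (4 wild-type mice). R6/2 mice carry a transgene with exon 1 of human huntingtin and an expanded CAG repeat, driven by a human huntingtin promoter, and model an aggressive form of Huntington disease. All mice were female, on a mixed C57Bl/6 and CBA background, and 12 weeks old. In days, R62_86 was 85 days old and the other 4 R6/2 mice were 83 days old, against 85 days for the 4 wild-type mice. Genotype and age in days therefore largely coincided, and their effects cannot be told apart within the younger R6/2 mice. Values are log2 expression, a difference is R6/2 minus wild-type with its standard error, and a gene is said to have risen or fallen where limma's p-value, adjusted over all 18194 genes, lay under 0.05. By that rule 3066 genes (16.9%) differed, 1688 higher (9.28%) and 1378 lower (7.57%) in R6/2 mice. In this bulk tissue, fewer cells of a type and less RNA per cell cannot be told apart.

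Translation begins when initiation factors load the small ribosomal subunit with the initiator tRNA, bring it to the capped end of an mRNA and let it search for the start codon. eIF2 carries the initiator tRNA and is switched off by stress-activated kinases, eIF3 holds the complex together, and the eIF4 group recognises the cap and unwinds the mRNA. Elongation factors then deliver aminoacyl-tRNAs and move the ribosome along. Many ribosomal protein and elongation factor mRNAs start with a run of pyrimidines, through which growth signalling controls their translation as a group.

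The stretches of promoter below run from 100 bases before to 20 bases from the annotated start on and show 4 genes that rose in R6/2 mice beside 4 ribosomal protein genes of which 0 passed the test, so that the starts of both kinds can be read side by side. Sequences and positions are RefSeq's on GRCm38.p6, 5′ to 3′ on the strand of the gene. Capitals mark CCGGAAG (the core bound by ETS family factors), GGGCGGG (the GC box bound by Sp1) and their reverse complements CTTCCGG and CCCGCCC, and a run of at least 8 C or T letters that reaches within 20 bases of the start.
Eif1ax (chrX:159372078-159372197, plus strand): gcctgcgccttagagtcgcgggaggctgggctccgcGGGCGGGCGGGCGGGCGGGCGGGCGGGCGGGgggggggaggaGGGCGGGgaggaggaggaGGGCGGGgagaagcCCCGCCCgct
Eif3c (chr7:126566347-126566466, minus strand): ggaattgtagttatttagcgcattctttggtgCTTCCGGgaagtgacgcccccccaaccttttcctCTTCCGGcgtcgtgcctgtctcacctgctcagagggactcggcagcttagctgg
Eif1b (chr9:120492506-120492625, plus strand): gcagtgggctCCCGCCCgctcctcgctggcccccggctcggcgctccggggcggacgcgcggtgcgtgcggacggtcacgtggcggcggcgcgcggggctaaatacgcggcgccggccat
Eif2ak1 (chr5:143817692-143817811, plus strand): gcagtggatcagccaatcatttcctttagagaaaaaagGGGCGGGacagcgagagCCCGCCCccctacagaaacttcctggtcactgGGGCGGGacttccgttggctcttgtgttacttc
Rps6 (chr4:86857348-86857467, minus strand): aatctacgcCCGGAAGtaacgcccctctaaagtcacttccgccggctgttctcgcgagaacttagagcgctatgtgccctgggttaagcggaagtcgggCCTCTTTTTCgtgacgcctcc
Rpl27a (chr7:109519095-109519214, plus strand): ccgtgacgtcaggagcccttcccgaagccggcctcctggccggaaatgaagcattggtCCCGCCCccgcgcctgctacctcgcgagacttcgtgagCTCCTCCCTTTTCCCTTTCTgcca
Rpl37 (chr15:5116513-5116632, plus strand): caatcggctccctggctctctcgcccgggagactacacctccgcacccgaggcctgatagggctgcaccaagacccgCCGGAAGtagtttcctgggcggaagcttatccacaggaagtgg
Rps19 (chr7:24884492-24884611, plus strand): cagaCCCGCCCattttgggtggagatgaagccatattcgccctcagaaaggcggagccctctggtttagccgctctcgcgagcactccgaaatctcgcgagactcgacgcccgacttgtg

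Promoter windows of 300 bases (250 before the start) were found for 87 of the members and for 17492 protein-coding genes. The letters CCGGAAG, on either strand, stood in 13 of 35 windows of initiation genes and regulators (37.1%) and in 20 of 43 of ribosomal genes (46.5%), against 11.9% of all windows. GGGCGGG stood in 60.0% of initiation windows and 44.2% of ribosomal windows, against 34% of all. AAGATGGC, which YY1 binds, stood in 5.71% of initiation windows and 9.3% of ribosomal windows, against 3.21% of all. Neighbouring matches may overlap, as in the repeated GC boxes of Eif1ax. A pyrimidine run near the start was found in 21 of 43 ribosomal windows (48.8%) and 4 of 9 elongation windows (44.4%), against 7 of 35 initiation windows (20%) and 20.1% of all. Of the 8 members that rose, 5 had CCGGAAG, 6 had GGGCGGG and 0 had such a run in the window; in Eif1ax, Eif1b and Eif2ak1 the CCGGAAG match lies outside the stretch printed. No test of a difference between classes was run on these shares. The matches describe letters and do not show that a factor binds.

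**Figure D1:**
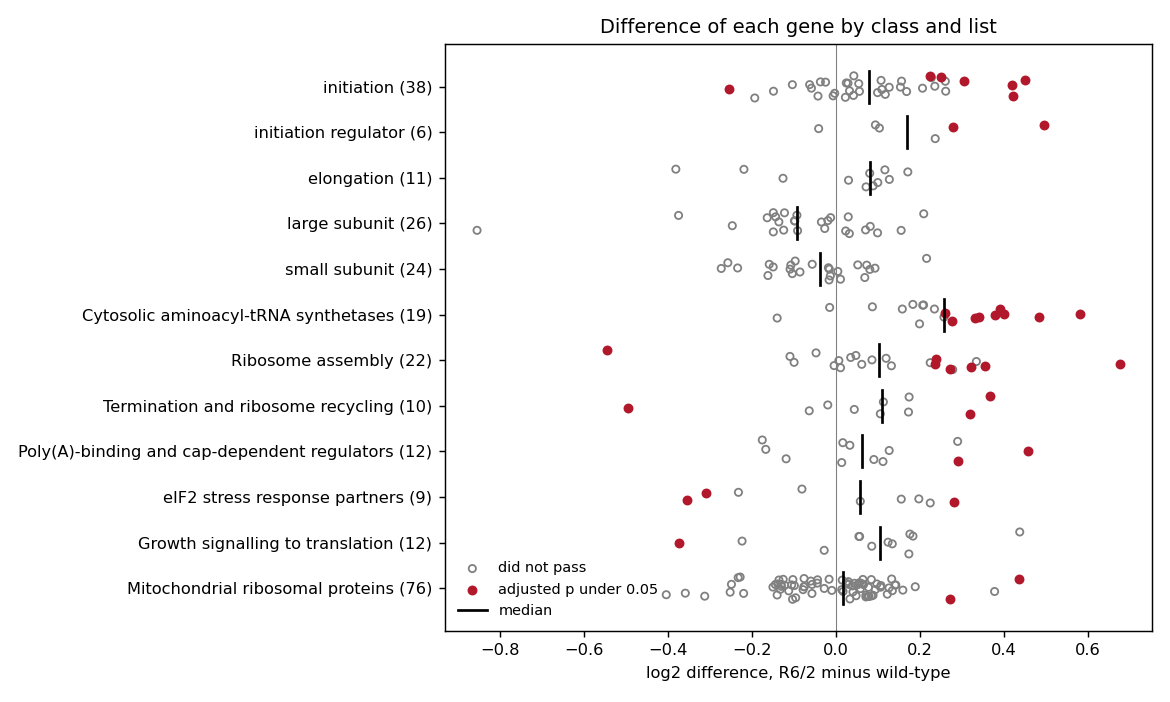
Log2 difference, R6/2 minus wild-type, of each gene (x axis) by class or list (y axis, number of genes in brackets); filled red points passed limma's adjusted p of 0.05, open points did not, and black bars are medians. Red points occur among initiation factors, regulators, tRNA synthetases and most of the other lists, and 0 among the elongation and ribosomal subunit genes.

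Of the members (44 in initiation, 11 in elongation and 50 ribosomal), 8 rose, 1 fell and 96 did not pass the test, so 8.57% were called, against 16.9% of all genes. All 9 belonged to initiation. The 44 initiation factors and regulators had 8 higher and 1 lower (20.5% called), with a median difference of 0.10, against -0.02 over all genes. Most of them are bright, however, and among the brighter 50% of genes the 40 that remained had 25% called and a median of 0.10, against 29.8% called and a median of 0.05 over all 9097 such genes. The 11 elongation genes and the 50 ribosomal genes had 0 calls, with medians of 0.08 and -0.07. In 10 members every R6/2 value lay above every wild-type value (9.18% of all genes did so), and in 0 members the reverse held (8.08% of all genes), against 17.3% of all genes in either direction. At an unadjusted p under 0.05 there were 22 members, against 31.1% of all genes.

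Start codon recognition was represented by 4 genes of eIF1 and eIF1A, of which 2 rose. Eif1ax, the X-linked form of eIF1A that helps the small subunit to scan (chromosome X, 159372178 to 159389621), measured 9.48, 9.38, 9.51, 9.23 and 9.53 in R62_86, R62_95, R62_105, R62_107 and R62_109, against 9.04, 8.93, 9.10 and 8.84 in WT_46, WT_47, WT_49 and WT_66. All 5 R6/2 mice lay above all 4 wild-type mice, and the difference was 0.45 ± 0.08 (1.37-fold, adjusted p = 0.0045). The call depended on the probe set. An Eif1ax probe set with a mean of 8.61 differed by 0.04 (adjusted p over all probe sets 0.878). Another, with a mean of 8.42, differed by 0.29 (adjusted p over all probe sets 0.23). Eif1b, a close relative of the start codon fidelity factor eIF1 (chromosome 9, 120492606 to 120495327), measured 10.11, 10.25, 10.23, 9.88 and 10.09 in the R6/2 mice in the same order, against 9.61, 9.64, 9.94 and 9.60 in the wild-type mice. WT_49 reached into the R6/2 range, and the difference was 0.42 ± 0.10 (1.34-fold, adjusted p = 0.0142). Eif1a, the autosomal eIF1A gene, and Eif1ad, an eIF1A domain protein, did not pass, with differences of -0.04 and 0.10.

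**Figure D2:**
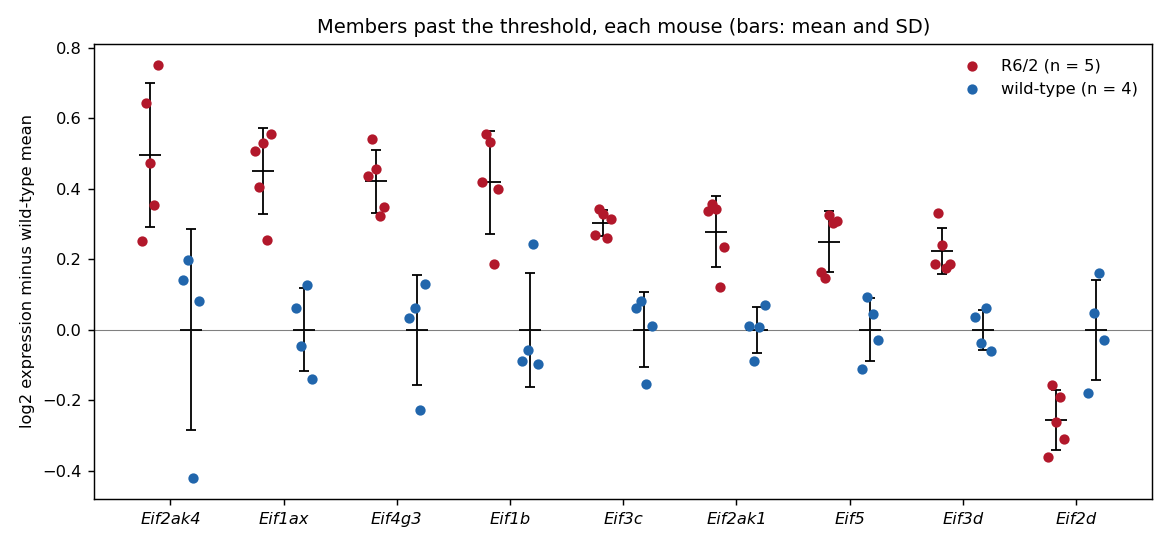
Log2 expression of each mouse minus the wild-type mean (y axis) for the 9 members past the threshold, R6/2 in red (n = 5) and wild-type in blue (n = 4), with bars for mean and SD. Points of the genotypes overlap in Eif1b, through WT_49, and in Eif2d.

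Among eIF2 and its partners 0 of 3 rose and 1 fell. Eif2d, an alternative factor that can deliver initiator tRNA without GTP (chromosome 1, 131153172 to 131187659), measured 7.37, 7.58, 7.47, 7.54 and 7.43 in R62_86, R62_95, R62_105, R62_107 and R62_109, against 7.56, 7.78, 7.90 and 7.71 in WT_46, WT_47, WT_49 and WT_66. Its ranges overlapped, and it was the single member that fell, by 0.26 on the log2 scale (difference -0.26 ± 0.08, adjusted p = 0.0468). The call depended on the probe set: another Eif2d probe set rose, with a difference of 0.29 (adjusted p over all probe sets 0.0307), and the mean of the gene's probe sets differed by 0.01 (adjusted p = 0.917). Eif2s2, the beta subunit of eIF2, had a difference of 0.23 at its brightest probe set (adjusted p = 0.101) and rose at a dim one (0.62, adjusted p over all probe sets 0.00366), and the differences of all its 6 probe sets were positive. Without WT_49 Eif2s2 rose at the brightest probe set too. Among the 5 subunits of eIF2B, the exchange factor that recharges eIF2, 0 passed, with a median of 0.12. Eif2b4, its delta subunit, was closest at 0.26 (adjusted p = 0.0592), whereas Eif2b5, the catalytic epsilon subunit, measured 0.04 ± 0.10 (adjusted p = 0.816).

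Kinases that phosphorylate eIF2 rose in part. Eif2ak1, the haem-regulated kinase HRI (chromosome 5, 143817792 to 143902717), measured 8.34, 8.36, 8.34, 8.12 and 8.23 in R62_86, R62_95, R62_105, R62_107 and R62_109, against 8.01, 7.91, 8.01 and 8.07 in WT_46, WT_47, WT_49 and WT_66. Its genotypes did not overlap, and the difference was 0.28 ± 0.07 (1.21-fold, adjusted p = 0.0187). Eif2ak4, the amino acid sensing kinase GCN2 (chromosome 2, 118388583 to 118475234), measured 6.62, 7.01, 6.84, 6.72 and 7.12 in the R6/2 mice, against 6.51, 6.56, 5.94 and 6.45 in the wild-type mice. Here too the ranges were apart, with WT_49 far below the rest, and the difference was 0.50 ± 0.14 (1.41-fold, adjusted p = 0.0339). Without WT_49 it was 0.36 (adjusted p = 0.0557). A second Eif2ak4 probe set differed by 0.58 (adjusted p over all probe sets 0.044). Eif2ak2, the double-stranded RNA dependent kinase PKR, had a difference of 0.24 ± 0.10 (adjusted p = 0.132) at its brightest probe set and 0.49 (adjusted p over all probe sets 0.00565) at a dimmer one. Of the other regulators, the cap-blocking proteins Eif4ebp1 and Eif4ebp2 differed by -0.04 ± 0.09 and 0.10 ± 0.09 (adjusted p = 0.792 and 0.466), and Eif4enif1, which carries eIF4E into the nucleus, by 0.09 ± 0.05 (adjusted p = 0.277).

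The 11 measured eIF3 subunits had 2 higher and 0 lower (18.2% called, against 16.9% of all genes), with a median of 0.04. Eif3c, a core scaffold subunit (chromosome 7, 126546911 to 126566366), measured 10.75, 10.82, 10.81, 10.74 and 10.80 in R62_86, R62_95, R62_105, R62_107 and R62_109, against 10.54, 10.56, 10.33 and 10.49 in WT_46, WT_47, WT_49 and WT_66. The R6/2 values lay in a narrow band above all wild-type values, with a difference of 0.30 ± 0.06 (1.23-fold, adjusted p = 0.00953). Eif3d, a subunit that can itself bind the cap of some mRNAs (chromosome 15, 77958998 to 77970824), measured 9.82, 9.96, 9.87, 9.81 and 9.82 in the R6/2 mice, against 9.67, 9.59, 9.69 and 9.57 in the wild-type mice. These ranges were also apart, and the difference was 0.22 ± 0.06 (1.17-fold, adjusted p = 0.0272). The other 9 subunits ranged from -0.19 ± 0.13 for Eif3k (adjusted p = 0.33) to 0.21 ± 0.13 for the largest subunit Eif3a (adjusted p = 0.3), and Eif3m measured -0.15 ± 0.11 (adjusted p = 0.381). A second Eif3a probe set, with a mean of 9.39, rose by 0.21 (adjusted p over all probe sets 0.0494). The differences of all 4 Eif3a probe sets were positive.

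Among 10 genes of the eIF4 group 1 rose. Eif4g3, a scaffold that joins the cap-binding protein, the helicase and eIF3 (chromosome 4, 137991779 to 138207086), measured 9.58, 9.68, 9.60, 9.46 and 9.49 in R62_86, R62_95, R62_105, R62_107 and R62_109, against 9.17, 9.20, 8.92 and 9.27 in WT_46, WT_47, WT_49 and WT_66. The genotypes were apart, and the difference was 0.42 ± 0.08 (1.34-fold, adjusted p = 0.00678), although the mean of its probe sets differed by 0.10 (adjusted p = 0.547). The other probe sets in that mean were dim, at 4.04 to 4.55 against 9.38 for the brightest. The cap-binding protein gene Eif4e differed by 0.11 ± 0.09 (adjusted p = 0.465) and the related scaffold Eif4g2 by 0.11 ± 0.06 (adjusted p = 0.281). Of the helicases, Eif4a1 differed by 0.03 ± 0.14 (adjusted p = 0.902) and Eif4a2, the form prominent in brain, by 0.23 ± 0.10 (adjusted p = 0.148). Eif4a2 was 12.78, 12.37, 12.79, 12.76 and 12.76 in the R6/2 mice, against 12.61, 12.50, 12.31 and 12.44 in the wild-type mice, so R62_95 alone lay within the wild-type range. Without R62_95 the difference was 0.31 (adjusted p = 0.0179). Eif4b, which stimulates the helicase, differed by 0.13 (adjusted p = 0.137) with no overlap.

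Of 5 genes of eIF5, eIF5A, eIF5B and eIF6, 1 rose. This was Eif5, the GTPase activator of eIF2 that acts at the start codon (chromosome 12, 111538101 to 111546753). It measured 10.84, 10.82, 11.00, 10.98 and 10.98 in R62_86, R62_95, R62_105, R62_107 and R62_109, against 10.56, 10.77, 10.72 and 10.65 in WT_46, WT_47, WT_49 and WT_66. No wild-type mouse reached the R6/2 range, and the difference was 0.25 ± 0.07 (1.19-fold, adjusted p = 0.0304). Eif5b, the GTPase that joins the subunits, differed by 0.26 (adjusted p = 0.0961) and Eif6, which keeps the large subunit apart until it is mature, by 0.16 ± 0.12 (adjusted p = 0.424). Eif5a and Eif5a2, the hypusine-carrying factors that relieve stalled ribosomes, differed by -0.00 ± 0.06 and 0.05 ± 0.13 (adjusted p = 0.975 and 0.811).

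How far these 9 calls held varied by gene. The 8 positive differences stayed positive under each of 22 alternative settings. Except in Eif1b, their genotypes did not overlap, so leaving out mice could not change the sign. The median of the 38 initiation factors, 0.08, became -0.05 when arrays were centred on 7 housekeeping genes. That centring shifts every gene's difference by the same amount, so it cannot change how initiation factors compare with all genes. The median over all genes became -0.15 in place of -0.02 with that centring. With it 0 members passed (2.19% of all genes rose), and without the 3 mice with the highest choroid plexus marker means (R62_107, WT_47 and WT_66) Eif1ax and Eif4g3 alone rose among members, with 2.16% of all genes. Averaging a gene's probe sets left Eif1b (0.42, adjusted p = 0.0149) and Eif2ak4 (0.54, adjusted p = 0.0251) as the 2 of the 8 that rose, with Eif2ak2 and Rps20 added and 7.31% of all genes higher. The averages were 0.26 for Eif1ax (adjusted p = 0.0683), 0.17 for Eif2ak1 (0.075), 0.19 for Eif3c (0.153), 0.11 for Eif3d (0.168), 0.10 for Eif4g3 (0.547) and 0.22 for Eif5 (0.0858). The averages of Eif2ak1, Eif3d and Eif4g3 include dim probe sets, at 4.98 and 3.37, at 4.80, and at 4.04 to 4.55 in that order. The probe sets of Eif1ax and Eif3c all read 8.42 or more.

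With the brightest probe set kept, Eif1ax, Eif4g3, Eif1b and Eif3c passed with each of the 9 mice left out. Eif2ak1 lost its call without WT_47 (0.25, adjusted p = 0.0573). Eif3d lost it without WT_47, WT_66 or R62_105, with adjusted p between 0.06 and 0.074. Eif5 lost it without WT_46, WT_66, R62_105, R62_107 or R62_109, with adjusted p between 0.0642 and 0.078. Eif2ak4 lost it, besides WT_49, without WT_66, R62_95, R62_105 or R62_109, with adjusted p between 0.0557 and 0.0781. Eif2d passed only without WT_46 or without R62_95.

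Cortex projection neuron markers were higher on average in R6/2 mice, 7.51 against 6.77, but WT_46 and WT_47 lay within the R6/2 range. The mean of 10 such markers was 7.59, 7.29, 7.89, 6.97 and 7.79 in R62_86, R62_95, R62_105, R62_107 and R62_109, against 7.32, 7.01, 6.47 and 6.26 in WT_46, WT_47, WT_49 and WT_66, and 4 of the 10 rose and 1 fell. With that mean as a covariate, 0 members passed, and 499 of all genes did (2.74%). The differences of Eif1b (0.39), Eif4g3 (0.39), Eif2ak1 (0.26), Eif3d (0.21) and Eif5 (0.25) were close to those without it, and those of Eif1ax (0.31), Eif3c (0.23), Eif2ak4 (0.32) and Eif2d (-0.14) were smaller. Standard errors were 0.09 to 0.19 with the covariate, against 0.06 to 0.14 without it. The 9 choroid plexus and ependyma markers had 0 calls, and all 9 differences were negative. Their means overlapped between genotypes, at 5.24, 6.08, 5.47, 7.16 and 6.00 in the R6/2 mice, against 5.68, 8.36, 5.76 and 8.70 in the wild-type mice. With the choroid mean as a covariate Eif1ax, Eif2ak4, Eif3c and Eif4g3 still rose, as did 5.84% of all genes. Spiny projection neuron markers, which define the striatum, were present in every mouse, with means of 9.79 to 10.69 in R6/2 mice against 11.63 to 11.92 in wild-type mice, and 7 of 8 fell. Astrocyte markers fell in 3 of 6 cases and microglial markers in 2 of 6, and 0 of 5 oligodendrocyte, 4 endothelial and 2 blood markers passed. The part of tissue composition in the initiation differences was not tested. With age in days as a term, which rests on R62_86 alone, 0 members and 30 of all genes (0.165%) passed. The differences were then 0.51 for Eif1ax, 0.44 for Eif4g3, 0.42 for Eif1b, 0.34 for Eif2ak1, 0.27 for Eif3c, 0.19 for Eif3d and -0.36 for Eif2d, and lower for Eif2ak4 (0.25) and Eif5 (0.16), with standard errors of 0.105 to 0.23.

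**Figure D3:**
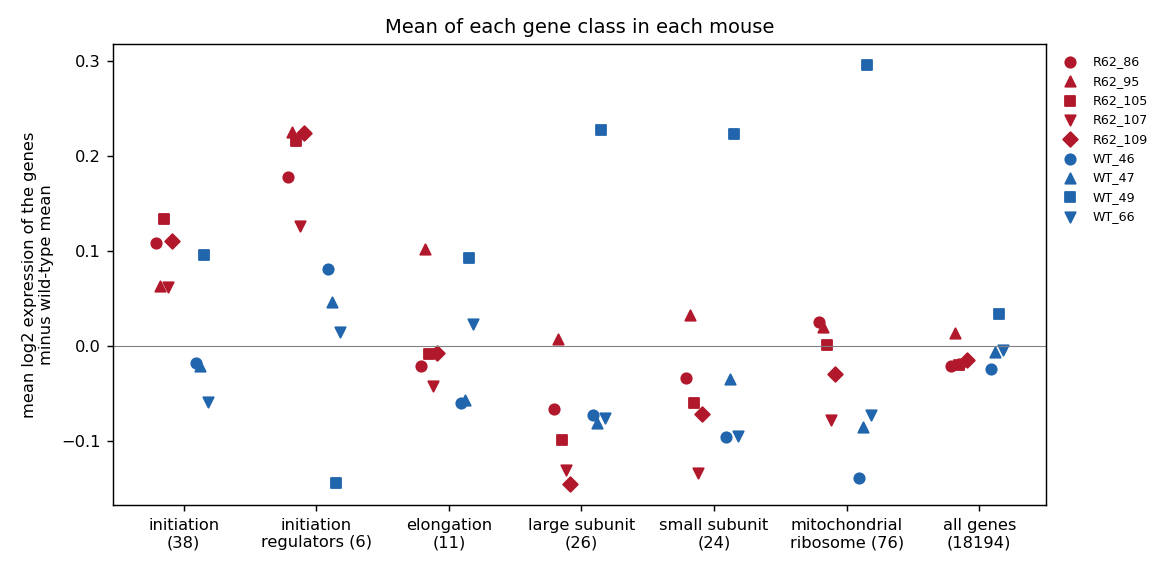
Mean log2 expression of each class in each mouse minus the wild-type mean (y axis), R6/2 in red and wild-type in blue with 1 symbol per mouse, and the number of genes in brackets (x axis). WT_49 stands above the other mice in both ribosomal subunits and in the mitochondrial ribosome, and all R6/2 mice lie above all wild-type mice for the initiation regulators.

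Elongation genes had 0 calls among 11 by limma, with 3 at an unadjusted p under 0.05. In other settings Eef1akmt1 fell, without WT_46 and with the 3' minus 5' difference of control probe sets as a covariate. Eef1e1 rose without WT_49 and R62_95. Eef1a2, the neuron and muscle form of the factor that brings aminoacyl-tRNA to the ribosome, measured 12.40, 12.36, 12.42, 12.33 and 12.37 in R62_86, R62_95, R62_105, R62_107 and R62_109, against 12.30, 12.17, 12.10 and 12.24 in WT_46, WT_47, WT_49 and WT_66. The ranges did not overlap, yet the difference of 0.17 ± 0.06 did not pass (adjusted p = 0.0789). Eef1a1, the widely expressed form, measured 13.73, 13.66, 13.67, 13.72 and 13.74 in the R6/2 mice, against 13.64, 13.55, 13.55 and 13.56 in the wild-type mice. Again no values overlapped, and the difference was 0.13 ± 0.05 (adjusted p = 0.139). Eef2, the translocation factor, differed by 0.08 ± 0.08 (adjusted p = 0.516) and its inhibiting kinase Eef2k by 0.10 ± 0.07 (adjusted p = 0.367). The exchange factor subunits Eef1d and Eef1b2 differed by -0.13 ± 0.13 and 0.03 (adjusted p = 0.553 and 0.815). The methyltransferases Eef1akmt1, acting on eEF1A, and Eef2kmt, acting on eEF2, differed by -0.38 ± 0.14 and -0.22 ± 0.10 (adjusted p = 0.0987 and 0.174). The mean of the class was 9.19, 9.32, 9.21, 9.17 and 9.21 in the R6/2 mice, against 9.15, 9.16, 9.31 and 9.24 in the wild-type mice, so the genotypes overlapped.

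None of the 50 ribosomal genes passed limma's test, and 4 had an unadjusted p under 0.05. Other settings called 5 of them: Rpl14, Rpl37, Rps19, Rpl27a and, through dim probe sets, Rps20. The differences of the 50 ranged from -0.86 to 0.22, 34 negative and 16 positive. Medians were -0.07 in the 42 ribosomal proteins alone, -0.09 in the large and -0.04 in the small subunit. The class mean was 10.40, 10.47, 10.37, 10.32 and 10.34 in R62_86, R62_95, R62_105, R62_107 and R62_109, against 10.37, 10.40, 10.68 and 10.37 in WT_46, WT_47, WT_49 and WT_66. WT_49 stood above the other 8 mice, which lay close together. As means, that is 10.38 ± 0.06 in R6/2 mice (SD, n = 5) against 10.45 ± 0.15 in wild-type mice (SD, n = 4), a difference of -0.07, and without WT_49 it was 0.00. WT_49 had the highest value of all 9 mice in 36 of the 50 genes (72.0%), against 25.9% of all genes.

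Within the R6/2 group, R62_95 had the highest value in 33 of the 50 ribosomal genes (66%), against 32.2% of all genes. The same mouse had the largest gap between control probe sets at the 3' and 5' ends of Actb and Gapdh, a sign of RNA degradation. That gap was 0.20, 0.82, 0.19, 0.16 and 0.18 in R62_86, R62_95, R62_105, R62_107 and R62_109, against 0.19, 0.14, 0.37 and 0.24 in WT_46, WT_47, WT_49 and WT_66. The mice with the largest gap in each genotype, R62_95 and WT_49, were thus those with the highest ribosomal mean, and the part of RNA quality in this was not tested. Without both mice, 14 members rose and 1 fell, 12 of the 14 in initiation besides Rpl27a and Eef1e1, a scaffold of the synthetase complex, against 10.3% and 7.93% of all genes. Rpl37 was the member that fell there.

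**Figure D4:**
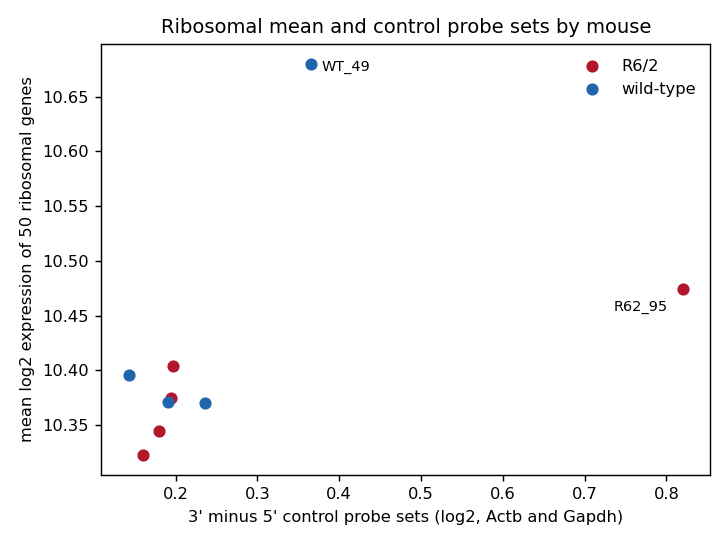
Mean log2 expression of the 50 ribosomal genes in each mouse (y axis) against the 3' minus 5' difference of the Actb and Gapdh control probe sets (x axis, log2), R6/2 in red and wild-type in blue. R62_95 and WT_49 lie to the right of and above the other mice of their genotype.

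The large subunit held the widest difference, at an Rpl14 probe set with a mean of 6.47. The median level of the 50 ribosomal genes was 11.83. The probe sets of Rpl27a (7.73), Rpl12 (6.57), Rpl39 (6.99), Rps6 (6.90) and Rps27 (6.58) also read well below it. The differences given for these genes are those of these low-reading probe sets. Rpl14 measured 5.80, 5.81, 6.60, 6.50 and 5.75 in R62_86, R62_95, R62_105, R62_107 and R62_109, against 7.22, 6.68, 7.99 and 5.88 in WT_46, WT_47, WT_49 and WT_66. Its mice were widely spread in both genotypes and overlapped, and the difference of -0.86 ± 0.36 did not pass (adjusted p = 0.134). It fell without WT_66 (-1.21, adjusted p = 0.0295), with the choroid covariate (-1.24, adjusted p = 0.0426) and without the 3 choroid-rich arrays (-1.62, adjusted p = 0.0281). Rpl37 measured 9.11, 9.46, 8.92, 8.83 and 9.01 in the R6/2 mice, against 9.28, 9.21, 9.82 and 9.44 in the wild-type mice, a difference of -0.38 ± 0.15 (adjusted p = 0.109), and fell without R62_95 (-0.47, adjusted p = 0.0336) and with the 3' minus 5' gap as a covariate (-0.45, adjusted p = 0.0132). Rpl27a, with the opposite sign, measured 7.75, 7.58, 7.91, 7.96 and 7.92 in the R6/2 mice, against 7.53, 7.56, 7.63 and 7.74 in the wild-type mice. Its difference was 0.21 ± 0.09 (adjusted p = 0.131), and without R62_95 it rose by 0.27 (adjusted p = 0.0347).

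Rplp0, the stalk protein often used as a reference gene, measured 11.00, 10.99, 11.00, 10.97 and 10.96 in R62_86, R62_95, R62_105, R62_107 and R62_109, against 10.89, 11.03, 11.39 and 11.00 in WT_46, WT_47, WT_49 and WT_66. Apart from WT_49 the mice were nearly level, and the difference was -0.09 ± 0.09 (adjusted p = 0.528). Rpl22, an RNA-binding protein of the large subunit, differed by -0.16 ± 0.13 (adjusted p = 0.408) and its paralog Rpl22l1 by -0.01 ± 0.08 (adjusted p = 0.932). A dimmer Rpl22 probe set went the other way, at 0.42 (adjusted p over all probe sets 0.00246). Rpl12 differed by -0.25 ± 0.14 (adjusted p = 0.249) and Rpl39, a protein of the exit tunnel, by -0.02 ± 0.07 (adjusted p = 0.884).

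In the small subunit Rps19, a protein needed for its maturation, measured 11.81, 11.93, 11.67, 11.66 and 11.56 in R62_86, R62_95, R62_105, R62_107 and R62_109, against 11.89, 11.90, 12.18 and 11.87 in WT_46, WT_47, WT_49 and WT_66. R62_95 lay among the wild-type mice, and the difference was -0.23 ± 0.09 (adjusted p = 0.108). With the 3' minus 5' gap as a covariate it fell (-0.27, adjusted p = 0.0335). Rps6, the substrate of the S6 kinases, measured 6.89, 6.84, 6.62, 6.84 and 6.73 in the R6/2 mice, against 6.97, 7.02, 7.50 and 6.68 in the wild-type mice. These ranges overlapped, with a difference of -0.26 ± 0.14 (adjusted p = 0.232), at a probe set that names Rps6 alone and reads low for a ribosomal gene. The paralogs Rps27 and Rps27l differed by 0.07 ± 0.11 and -0.27 ± 0.17 (adjusted p = 0.695 and 0.295). Rps20 differed by 0.05 ± 0.08 at its brightest probe set (adjusted p = 0.704), and by 0.43 and 0.45 at a pair of dim ones (adjusted p over all probe sets 0.0308 and 0.0111). It rose with averaged probe sets (0.24, adjusted p = 0.0219) and without _s_at and _x_at probe sets (0.43, adjusted p = 0.0193). Both of these settings draw on the same dim probe sets, with means of 4.18 and 3.78. Another bright Rps20 probe set, with a mean of 12.22, differed by 0.03.

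Probe sets that name several genes were left out of the members, since ribosomal proteins have many near-identical pseudogenes. The 110 ribosomal ones among them had 0 higher and 0 lower, with a median of -0.08, and WT_49 was highest in 74 of them (67.3%). Over all 252 probe sets of the members, tested one by one, 16 were higher and 0 lower, in 14 members, against 5.82% higher and 4.56% lower of 45101 probe sets.

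Genes that work beside the members were examined in 10 further lists. Of their 176 genes 15.9% were called, against 16.9% of all genes and 29.8% of the brighter 50% of genes. Of 19 cytosolic aminoacyl-tRNA synthetases, which charge tRNAs with amino acids, 9 rose and 0 fell (47.4%), with a median of 0.26. All 19 lay among the brighter 50% of genes, and 10 rose when only those were tested. Aars, for alanine, measured 9.72, 9.59, 9.97, 9.69 and 9.88 in R62_86, R62_95, R62_105, R62_107 and R62_109, against 9.32, 9.22, 9.04 and 9.18 in WT_46, WT_47, WT_49 and WT_66. The genotypes were well apart, with a difference of 0.58 ± 0.09 (adjusted p = 0.00194). Hars, for histidine, differed by 0.48 ± 0.08 (adjusted p = 0.00315), and Lars, Iars, Eprs, Nars, Farsb, Cars and Rars rose by 0.26 to 0.40. Cars lost its call without WT_47, WT_66, R62_86 or R62_105 (adjusted p up to 0.0616) and Rars without WT_46, WT_47, WT_66, R62_86, R62_105 or R62_109 (up to 0.0934), and the other 7 passed with any 1 mouse left out. The count was then 7 to 10, against 1 with housekeeping centring and 0 with the cortex covariate.

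Ribosome assembly had 6 of 22 genes higher and 1 lower, with a median of 0.10. The share called was 31.8%, against 16.9% of all genes and 29.8% of the brighter 50% of genes. Fbl, the methyltransferase of ribosomal RNA, measured 9.39, 9.50, 9.57, 9.28 and 9.42 in R62_86, R62_95, R62_105, R62_107 and R62_109, against 8.72, 8.84, 8.81 and 8.64 in WT_46, WT_47, WT_49 and WT_66. Every R6/2 mouse lay above every wild-type mouse, and the difference was 0.68 ± 0.07 (adjusted p = 0.000349). Ubtf, the factor that opens ribosomal DNA for transcription, fell (-0.55 ± 0.09, adjusted p = 0.0024). Fbl, Ubtf and the assembly factor Wdr12 (0.36) passed with any 1 mouse left out, and the number that rose was then 2 to 4. Ltv1, Nop56, Rrs1 and Tsr1 each passed in 1 or 2 of the 9 leave-outs. The 10 termination and recycling genes had 2 higher and 1 lower (30% called). The release factor GTPase Gspt2 and the rescue factor Hbs1l rose (0.37 and 0.32, adjusted p = 0.00677 and 0.0371). Mcts1, a re-initiation factor, fell (-0.50 ± 0.14, adjusted p = 0.0327). Gspt2 passed with any 1 mouse left out, Hbs1l only without R62_95 or R62_107, and Mcts1 not without WT_46, R62_105, R62_107 or R62_109.

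Of 12 poly(A)-binding and cap-dependent regulators 2 rose (16.7% called, against 16.9% of all genes and 29.8% of the brighter 50% of genes). They were Larp1, which binds the pyrimidine run of ribosomal protein mRNAs (0.46 ± 0.11, adjusted p = 0.0152), and Pdcd4, an inhibitor of the eIF4A helicase (0.29, adjusted p = 0.0242). Among 9 partners of the eIF2 stress response (33.3% called), Impact, an inhibitor of GCN2, rose (0.28, adjusted p = 0.0157). The stress-induced Ddit3 and Trib3 fell (-0.31 and -0.35, adjusted p = 0.0184 and 0.0326). Atf4, their activator, differed by 0.20 (adjusted p = 0.247). Of 12 genes of growth signalling to translation (8.33% called), Deptor, an inhibitor of the mTOR kinase, fell (-0.37, adjusted p = 0.0207). Mtor differed by 0.13 (adjusted p = 0.356). Dph3 rose among 6 genes that make diphthamide, the modified residue of eEF2 (0.37, adjusted p = 0.0258), so 16.7% of that list was called. Larp1, Impact and Ddit3 passed with any 1 mouse left out, Deptor not without WT_66 (adjusted p = 0.0608), and Pdcd4 not without WT_47, WT_49, WT_66 or R62_109. Dph3 lost its call without WT_46, WT_47, WT_66, R62_105 or R62_109, and Trib3 passed only without R62_95 or R62_109.

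Mitochondrial ribosomal proteins had 2 of 76 genes higher and 0 lower (2.63%), namely Mrpl39 and Mrps34 (0.44 and 0.27, adjusted p = 0.00993 and 0.0367), with a median of 0.02. Mrpl39 passed with any 1 mouse left out and Mrps34 only without WT_49 or R62_107. WT_49 was highest in 60 of the 76 (78.9%), as it was in most cytosolic ribosomal genes. The 8 mitochondrial translation factors had 0 calls, and up to 2 higher with 1 mouse left out. Of the cytosolic ribosomal proteins whose symbols fall outside the rule, Rpsa and Fau were measured and did not pass (-0.44 ± 0.15 and -0.19, adjusted p = 0.0674 and 0.252).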

How the data were processed

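Striatal RNA of 9 mice was hybridised to 1 Affymetrix array each. The deposited values are log2 expression of 45101 probe sets, which the authors computed by RMA (affy package; per the submitters' processing notes). Its version is not given in the sources used. RMA gives arrays a shared distribution, so a change in total RNA could not be seen. Per the labels' protocols, cRNA was labelled in an IVT reaction, which favours 3' ends. Correlations between arrays ran from 0.979 to 0.995, and at most 3.93% of values were identical between 2 arrays. The number of arrays limits the precision.

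The members numbered 105. Of the probe sets, 34958 named 1 gene, 932 several and 9211 were not listed in the platform annotation. Genes and positions were matched to RefSeq (GRCm38.p6) for 34754 of those naming 1 gene. No filter on dim probe sets was used. Genotypes were compared with limma 3.58.1 in R 4.3.3 (lmFit, eBayes; two-sided, Benjamini-Hochberg over 18194 genes). Each mouse was a replicate. Figures used matplotlib 3.10.9.

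The members, gene lists and tests were chosen with earlier results of these data known. Named genes were members past the threshold, up to 5 with the smallest p in each class and direction, and 28 set by name, of which 25 were measured (Eif2s1, Eif4g1 and Rpl3 were not analysed here). Members with more than 1 probe set at odds, and list genes, were named after their values were seen. Alternatives were averaging a gene's probe sets, probe sets without _s_at and _x_at, the brighter 50% of genes, 3 scalings, eBayes with trend and robust settings, 4 covariates, 3 arrays rich in choroid plexus transcripts left out, and each mouse left out. Leaving out WT_49 with R62_95 was added after seeing the data. The fit was tested on simulated data. Some items are not reported here.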

Additional observations from a re-analysis of the deposited data

Results flagged for a closer look

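Within a genotype, 17 of 132 sets of values had 1 mouse far from the rest by Dixon's gap test, which chance alone gives in about 1 in 20 sets. R62_95 stood apart in 7 of them. It was low among R6/2 mice in Eif3m (8.82), Eif4a1 (10.3), Eif4a2 (12.4) and Eif4e (10.3), and high in Rps20 (12.5), in the mean of the elongation genes (9.32) and in the 3' minus 5' difference of the control probe sets (0.82). WT_49 stood apart in 5, high among wild-type mice in Eif1b (9.94), Eif3m (9.54), Rpl7a (12.4), Rps19 (12.2) and the mean of the large subunit genes (10.6).

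The other 5 were single genes. WT_46 was high in Eef1a1 (13.6) and WT_66 low in Eif6 (8.08). Among R6/2 mice, R62_86 was low in Eef2kmt (4.89), and R62_107 was low in Eif4a3 (4.09) and Rps3a1 (12.7).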

How the results depend on the processing

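No paired analysis was possible because the R6/2 and wild-type mice share no replicate numbers. Of 1263 pairs of a named gene and 1 of 22 alternatives, 1173 kept their side of the threshold, 72 lost the call and 17 gained one. In 1 pair the direction reversed (Eif2d, 0.0099 with the mean of its probe sets). Among the 1173 are 61 in which a gene called in neither setting changed sign. Members higher in R6/2 mice, 8 in the report, numbered 4 with the mean of probe sets (Eif1b and Eif2ak4 of the 8, and Eif2ak2 and Rps20), 0 with housekeeping centring, 0 with the cortex covariate, 4 with the choroid covariate, 0 with the age covariate, 2 without the 3 choroid-rich arrays, 14 without WT_49 and R62_95, and 5 to 11 with 1 mouse left out. Members lower, 1 in the report, numbered 0 with the mean of probe sets, median centring, housekeeping centring, trend and robust settings, and the cortex and age covariates, 4 with the 3' minus 5' covariate, and 0 to 2 with 1 mouse left out. Of all genes, 1688 higher and 1378 lower became 398 and 1785 with housekeeping centring, 208 and 291 with the cortex covariate, 1062 and 1046 with the choroid covariate, 4 and 26 with the age covariate, and 393 and 487 without the 3 choroid-rich arrays. With 1 mouse left out 1120 to 1699 were higher and 1020 to 1386 lower. Other translation genes, 23 higher and 5 lower of 176, gave 2 higher with housekeeping centring, 14 higher with the choroid covariate, 1 and 0 with the cortex covariate, 0 and 0 with the age covariate, 3 and 0 without the 3 choroid-rich arrays, 9 lower with the 3' minus 5' covariate and also without WT_49 and R62_95, and 13 to 24 higher and 3 to 6 lower with 1 mouse left out. Housekeeping centring gave medians of -0.054 for initiation factors, 0.038 for regulators, -0.052 for elongation, -0.22 for the large and -0.17 for the small subunit and -0.15 for all genes. Without the 3 choroid-rich arrays the medians of regulators and elongation were 0.257 and -0.0092, and the brighter 50% gave 0.28 for regulators. With 1 mouse left out the medians were 0.03 to 0.11 for initiation factors, 0.11 to 0.20 for regulators, 0.04 to 0.10 for elongation, -0.11 to 0.01 for the large and -0.09 to -0.01 for the small subunit. Causes were not tested.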
